A study of Mus musculus with 32 samples.

Results

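The 4 fetal liver genes H19, Igf2, Afp and Gpc3 and 6 genes of bile ducts and liver progenitor cells (Sox9, Krt7, Krt19, Epcam, Cd24a and Prom1) were followed in mouse liver across diet, Fc-GLP-1 treatment and partial hepatectomy (PH). Fc-GLP-1 is a glucagon-like peptide 1 analogue fused to an antibody Fc fragment. The 10 genes were measured by 18 of the 55681 probes of the array, found by their gene names. H19 was chosen by its measured rise after PH in mice given Fc-GLP-1 on a methionine- and choline-deficient (MCD) diet, the largest among all 21073 genes tested. The values of all members in that contrast, and of H19 in any comparison with those arrays, are therefore a description with no test. Of the 10 genes, 9 passed the filter on low signal, and the single probe of Igf2 did not.

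Livers came from male C57/BL6 mice, 8 weeks old at the start, in 8 groups of 4, each array labelled as a biological replicate. C mice ate chow and MCD mice the deficient diet for 3 weeks, both with injections of saline over the last 2 weeks. The C+Fc-GLP-1 mice on chow and the M+Fc-GLP-1 mice on MCD ate the same diets and received Fc-GLP-1 under the skin every second day over the last 2 weeks. The groups before PH were the liver tissue removed at surgery. In the groups after PH, 70% of the liver had been removed and the same diet and treatment went on for 2 weeks, so these animals had survived surgery. None of the groups was sampled at the later time without surgery. In comparisons of after with before PH, surgery, the longer diet and treatment, and age therefore cannot be told apart. The labels do not state whether a mouse gave tissue at both times. Some labels name the agent Fc-GLP-1, whereas others describe an agonist acting on both GLP1R and GCGR, at 4.4 mg/kg/day. For C+Fc-GLP-1 after PH, the source label gives Fc-GLP-1 before surgery and the dual agonist after it, whereas for M+Fc-GLP-1 it states that the treatment stayed the same. The descriptions of both groups name the dual agonist. Whether the agent differed between them is thus not settled, which touches every comparison of M+Fc-GLP-1 with C+Fc-GLP-1 after PH. The MCD diet is a model of fatty liver with inflammation that does not carry obesity with it.

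H19 is an imprinted long non-coding RNA, transcribed from the maternal allele next to Igf2, which encodes a fetal growth factor and is transcribed from the paternal allele. Afp (alpha-fetoprotein, the main plasma protein of the fetus) and Gpc3 (glypican 3, a heparan sulfate proteoglycan at the cell surface) are, like H19, high in fetal liver, are shut down after birth, and come back in regenerating liver and in liver tumours. Adult bile duct cells carry the keratins Krt7 and Krt19, the adhesion protein Epcam and the transcription factor Sox9, and in chronic injury the ductular cells that spread into the lobule carry the same genes together with Cd24a and Prom1 (CD133), which are used to sort liver progenitor cells. Levels below are log2 signals relative to the 75th percentile of the same array, so that 0 is the signal of a probe at that percentile. Signal above the local background, as the scanner software called it, is written as "well above background".

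The tissue label fitted the arrays, since all 10 hepatocyte markers examined were well above background on all 32 arrays. Between 36.3% and 69.2% of probes were well above background on an array, and 2 arrays of one group correlated at 0.9376 to 0.9846. Before PH, slide 1 held C and MCD and slide 2 held both treated groups. After PH, slide 4 held both treated groups, and C and MCD each had a slide of their own, read on another scanner. In comparisons across slides the slide and the group cannot be told apart. Replicate 1 of C after PH and replicate 4 of M+Fc-GLP-1 after PH were the highest of their groups in several of these genes at once. Results that rest on them are given with and without them, apart from correlations across arrays. In whole liver, fewer cells of a type and less RNA per cell cannot be told apart.

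H19 is covered by 7 probes, on the minus strand of chromosome 7 in the mm9 build. The outermost are shown because they mark the ends of the stretch covered and differ in how often they were well above background. Probe 1 (chr7:149762417-149762476), nearest the 5′ end, was well above background on 6 arrays only and was not used. Probe 2 (chr7:149762173-149762232) and probe 7 (chr7:149761492-149761551) are the first and last of the 6 probes that passed the filter, and probe 7, the brightest, stands for the gene below. RefSeq places H19 at 142575530 to 142578146 on chromosome 7 of GRCm38.p6, as a lncRNA gene that spans 2617 bases of the genome and contains Mir675.
H19 probe 1: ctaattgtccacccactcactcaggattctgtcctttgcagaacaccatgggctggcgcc
H19 probe 2: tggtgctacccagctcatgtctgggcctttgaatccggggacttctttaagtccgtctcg
H19 probe 7: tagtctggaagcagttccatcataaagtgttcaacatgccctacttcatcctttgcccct

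H19 was highest in the livers of M+Fc-GLP-1 mice after PH. In that group the H19 level was 3.27, 2.44, 2.85 and 3.69 on the 4 arrays, against -1.93, -3.78, -3.13 and -2.48 before PH. Every array after PH lay above every array before it, and the difference of 5.90 on the log2 scale, 59.5-fold, was the value H19 was selected on. The next 2 genes by size of rise were Msln (mesothelin, a surface protein of mesothelial cells), at 5.35, and Lcn2 (lipocalin 2, an acute phase protein), at 5.33. In the same contrast Gpc3 rose by 3.08 (place 17 of 21073), Prom1 by 2.21 (place 74) and Afp by 1.10 (place 580), all as a description. The summed level of the 7 mesothelial markers listed, of which 4 passed the filter, was taken on a linear scale relative to the 75th percentile. This sum went from 0.366 to 0.508 before PH to 1.06 to 6.38 after PH in these mice, and its part in the H19 difference was not tested. The sum includes Msln, and 4 of the 7 markers were well above background on no array of this group before PH.

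The 6 usable probes gave the same direction for this rise, from 3.54 to 5.90, whereas probe 1 differed by -0.31. They did so too for M+Fc-GLP-1 against C+Fc-GLP-1 after PH (4.03 to 6.32), for MCD against C before PH (0.75 to 2.98) and for C after against before PH (1.43 to 3.06). In MCD against C before PH, probe 1 differed by -1.11, with group means between -5.66 and -4.34 throughout. Probes 2 to 4 were well above background on 13, 16 and 14 of the 32 arrays, with all 4 arrays of a group above it in 2 groups only, so the low groups of these probes lie near background.

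**Figure D1:**
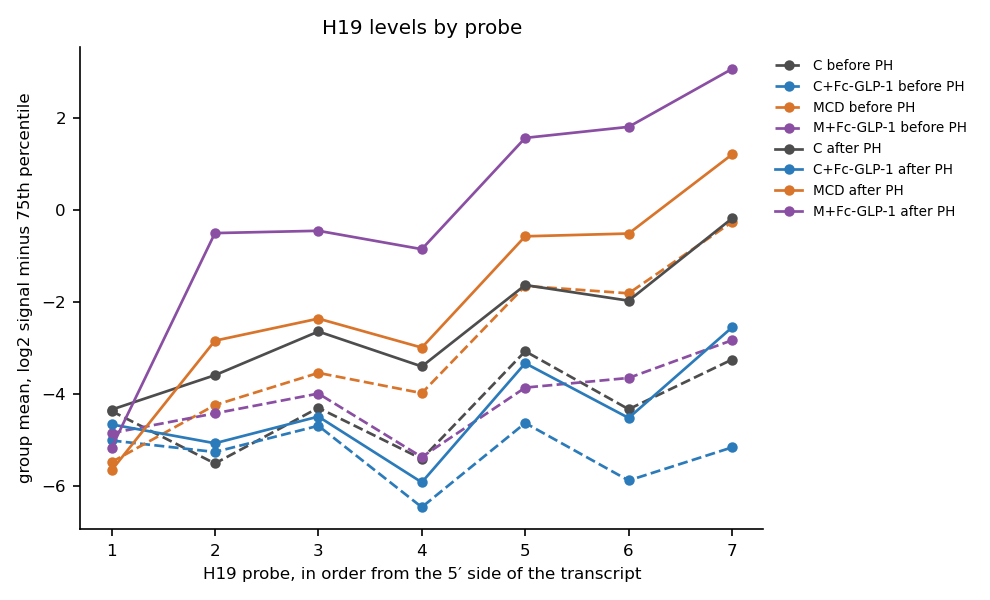
Group mean of the H19 log2 level relative to the 75th percentile of the array (vertical axis, n = 4 arrays a group) at each of the 7 probes in order from the 5′ end (horizontal axis), with dashed lines before PH and solid lines after PH. At probes 2 to 7 the M+Fc-GLP-1 group after PH is the highest line, while at probe 1 all groups lie between -5.66 and -4.34.

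The MCD diet alone raised H19. Before PH the H19 level was -3.03, -3.48, -3.58 and -2.89 in C livers, with 2 of 4 arrays well above background, and 0.55, -1.50, 0.08 and -0.19 in MCD livers, with all 4 above it. The groups did not overlap, and the difference was 2.98 ± 0.96 on the log2 scale (SE, n = 4 against 4; 7.91-fold; adjusted p = 0.0222, limma). The adjusted p rose to 0.063 without MCD replicate 1 and to 0.0516 without replicate 3, and the difference was 1.67 (adjusted p = 0.158) under another background correction, normexp, and 1.73 (adjusted p = 0.116) as the mean over the 6 probes.

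Fc-GLP-1 on chow went with the lowest H19 of the study. The C+Fc-GLP-1 arrays before PH read -5.65, -5.90, -3.99 and -5.09, and none of them was well above background at this probe or any other H19 probe. All 4 lay below the C arrays, of which 2 were well above background. On this scale H19 was at least 2.31-fold lower than in C, the test did not call it (adjusted p = 0.29), and the difference was -0.22 with normexp and -0.16 in the deposited normalised table. On the MCD diet before PH, the H19 level under Fc-GLP-1 was 2.57 below that without it, with no overlap, as a description, since those arrays chose the gene.

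After PH, H19 differed among the groups in a way that 1 array governed in chow-fed mice. C livers read 5.35, -3.18, -1.92 and -0.98, C+Fc-GLP-1 livers -1.72, -2.84, -3.03 and -2.61, and MCD livers 1.85, 1.00, 1.22 and 0.75. Replicate 1 of C, at 5.35, was the highest H19 value of all 32 arrays, while the other 3 lay below every MCD array. With all arrays, MCD was 1.39 above C (adjusted p = 0.389), and without that array it was 3.23 above C (adjusted p = 5.31e-05). The same array decided the comparison of C after with C before PH, which was 3.06 ± 0.96 (SE, n = 4 against 4; adjusted p = 0.0322, limma) with it and 1.22 (adjusted p = 0.142) without it. The adjusted p was 0.232 in a fit of these groups alone, 0.0858 (at 2.07) as the mean over probes, and 0.0538, 0.0628 and 0.0664 without replicates 1, 2 and 3 of C before PH, in turn.

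In the MCD and C+Fc-GLP-1 groups H19 after PH did not pass the test against before PH in the fit of all arrays. In MCD livers the difference was 1.47 (adjusted p = 0.374, or 0.0465 in a fit of these groups alone), with no overlap between the arrays. In C+Fc-GLP-1 livers it was 2.61, again with no overlap (adjusted p = 0.184, or 0.0443 in a fit of these groups alone), at least 3.75-fold over the background-limited level before PH on this scale, but the difference was 0.72 with normexp and 1.04 as the mean over the 6 probes. As a description, M+Fc-GLP-1 after PH lay 1.86 above MCD and 5.61 above C+Fc-GLP-1, and no array of either group reached the lowest M+Fc-GLP-1 array. Of the 7 steps between neighbouring groups in order of mean H19 level, 4 had overlapping arrays.

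**Figure D2:**
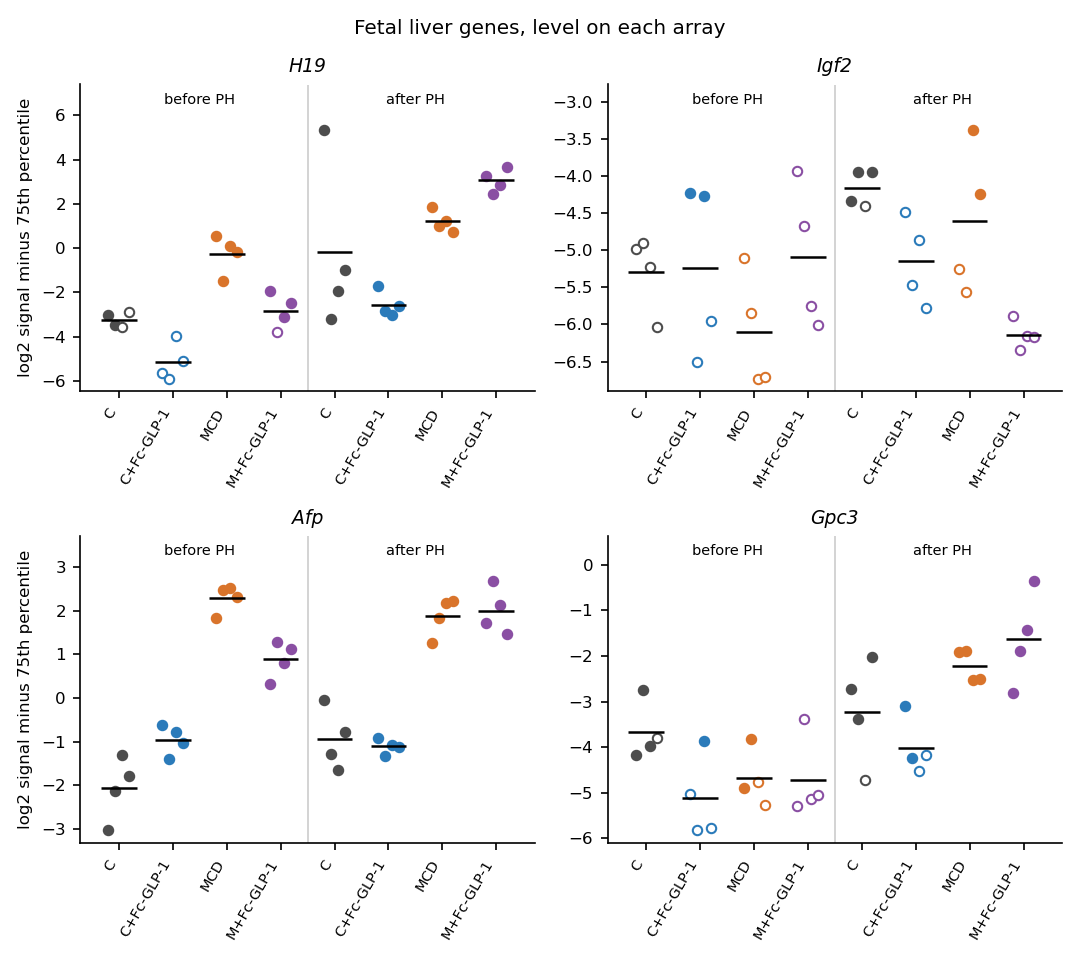
Log2 level relative to the 75th percentile of the array (vertical axis) for H19, Igf2, Afp and Gpc3 on each of the 32 arrays, by group (horizontal axis). Bars are group means over 4 arrays and open circles are arrays not well above background. H19 reaches 2.44 to 3.69 in M+Fc-GLP-1 after PH, and 1 array of C after PH reads 5.35.

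Afp was higher on the MCD diet in all 4 comparisons of the diets. Before PH its level was -3.03, -2.14, -1.31 and -1.78 in C livers and 1.82, 2.46, 2.52 and 2.31 in MCD livers. All MCD arrays lay above 0 and all C arrays below it. The difference was 4.34 ± 0.34 (SE, n = 4 against 4; 95% confidence interval 3.65 to 5.03; 20.2-fold; adjusted p = 6.35e-10, limma). After PH the C livers read -0.06, -1.28, -1.65 and -0.79 and the MCD livers 1.26, 1.84, 2.18 and 2.21, a difference of 2.82 ± 0.34 (7.06-fold; adjusted p = 1.8e-06) without overlap.

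Before PH, Fc-GLP-1 narrowed the effect of the diet on Afp. C+Fc-GLP-1 livers read -0.61, -1.40, -0.79 and -1.03, and M+Fc-GLP-1 livers 0.32, 1.29, 0.81 and 1.13. M+Fc-GLP-1 arrays lay between those groups, below all MCD arrays and above all C+Fc-GLP-1 arrays. Afp was thus 2.62-fold below the MCD level in M+Fc-GLP-1 livers (-1.39 ± 0.34, adjusted p = 0.0135, but 0.0543 without M+Fc-GLP-1 replicate 1) and 3.59-fold higher than in C+Fc-GLP-1 livers (1.84 ± 0.34, adjusted p = 0.000495). On chow, Fc-GLP-1 went with a difference of 1.11 in the other direction that did not pass (adjusted p = 0.0784, but 0.0385 without C replicate 3). The interaction of diet and treatment, which asks whether Fc-GLP-1 moved Afp differently on MCD and on chow and in which an additive slide difference cancels, was -2.49 ± 0.48 (95% confidence interval -3.47 to -1.51; adjusted p = 0.00408, limma).

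After PH that narrowing was not seen. M+Fc-GLP-1 livers read 1.71, 2.67, 2.12 and 1.47 and overlapped with MCD livers, the difference being 0.12 (95% confidence interval -0.57 to 0.81; adjusted p = 0.877). C+Fc-GLP-1 livers read -0.91, -1.32, -1.08 and -1.12, so that Afp was 8.57-fold higher in M+Fc-GLP-1 than in C+Fc-GLP-1 livers (3.1 ± 0.34, adjusted p = 3.95e-07). The interaction after PH was 0.28 ± 0.48 (adjusted p = 0.928). Afp also rose after PH on chow alone, by 1.12 ± 0.34 (adjusted p = 0.0272), but without replicate 1 of C after PH the rise was 0.82 (adjusted p = 0.137), and without replicate 1 of C before PH it was 0.79 (adjusted p = 0.12). The adjusted p was 0.151 in a fit of these groups alone, 0.0616 without replicate 4 of C after PH and 0.0532 without replicate 2 of C before PH.

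Gpc3 rose after PH on the MCD diet. Its level was -4.90, -3.81, -4.76 and -5.26 in MCD livers before PH and -1.91, -1.89, -2.53 and -2.51 after PH. The groups did not overlap, and the rise was 2.48 ± 0.54 (SE, n = 4 against 4; 5.56-fold; adjusted p = 0.00394, limma). Gpc3 passed the filter on low signal only through MCD and M+Fc-GLP-1 after PH, the 2 groups with its highest means. Calls of Gpc3 in comparisons with those groups are therefore not independent of the filter. With normexp background correction it was 0.83 (adjusted p = 0.0584).

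Gpc3 was also higher after PH in M+Fc-GLP-1 livers, at -2.82, -1.90, -1.42 and -0.36, than in C+Fc-GLP-1 livers, at -3.09, -4.23, -4.53 and -4.18. All arrays of the first group lay above all of the second, by 2.38 ± 0.54 (5.22-fold; adjusted p = 0.0033), with the same limit from the filter. Only 2 of the 4 C+Fc-GLP-1 arrays were well above background, and the difference was 1.15 (adjusted p = 0.0048) with normexp and 1.33 (adjusted p = 0.0278) in the deposited normalised table. M+Fc-GLP-1 and MCD livers after PH overlapped in Gpc3 (0.58, adjusted p = 0.561). None of the M+Fc-GLP-1 arrays before PH was well above background for Gpc3. The rise after PH in that group, part of the contrast that chose the set, was at least 5.71-fold on this scale. That bound is approximate, since replicate 2 before PH read -3.37 without being well above background.

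Igf2, the imprinted neighbour of H19 at 142650768 to 142666816 on chromosome 7 of GRCm38.p6, could not be tested. Its only probe was well above background on 7 of 32 arrays, and its levels ran from -6.73 to -3.38. Of those 7 arrays, 2 were C+Fc-GLP-1 before PH, 3 were C after PH and 2 were MCD after PH. No M+Fc-GLP-1 array, before or after PH, was well above background for Igf2, including the 4 with high H19. Igf2 in C livers after PH, measured on 3 of 4 arrays, was at least 1.49-fold above C before PH and at least 1.58-fold above C+Fc-GLP-1 after PH, with no test. These bounds are approximate, since replicate 1 of M+Fc-GLP-1 before PH read -3.94 without being well above background.

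Among the biliary and progenitor genes, Epcam fell after PH on the MCD diet and was above that level in livers of mice also given Fc-GLP-1. In MCD livers Epcam was -2.08, -1.79, -2.29 and -1.58 before PH and -5.38, -4.14, -3.56 and -3.79 after PH, when 2 of 4 arrays were still well above background. All arrays after PH lay below all arrays before it, a fall of 4.86-fold (-2.28 ± 0.62, SE, n = 4 against 4; adjusted p = 0.0178, limma). M+Fc-GLP-1 livers after PH read -2.30, -1.82, -2.69 and 1.06, all above the MCD arrays, by 2.78 ± 0.62 (6.86-fold; adjusted p = 0.00697). Without replicate 4 of M+Fc-GLP-1 and replicate 1 of C the latter difference was 1.95 (adjusted p = 0.00584), and it was 1.57 (adjusted p = 0.0864) in the deposited normalised table. The change on MCD was -1.89 (adjusted p = 0.0757) without MCD replicate 1 after PH, -2.16 (adjusted p = 0.0506) without MCD replicate 4 before PH and -0.91 (adjusted p = 0.176) with normexp. The difference between the 2 changes from before to after PH was not tested, since the M+Fc-GLP-1 contrast chose the set.

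Prom1 moved the opposite way to Epcam in the same MCD livers. Its level was -0.55, -0.84, -0.83 and -0.45 before PH and 1.82, 1.76, 2.22 and 1.89 after PH. These arrays were tightly grouped and did not overlap, with a rise of 2.59 ± 0.77 (6.02-fold; adjusted p = 0.032). The spread used in the test came from all 8 groups, in which other arrays varied more, and with any 1 of the 8 MCD arrays left out the adjusted p lay between 0.056 and 0.0735.

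In the other groups after PH, Prom1 was 3.58, -1.90, -1.15 and -0.36 in C livers, 0.08, -1.22, -1.39 and -1.95 in C+Fc-GLP-1 livers and 0.63, 0.10, 0.36 and 3.04 in M+Fc-GLP-1 livers. M+Fc-GLP-1 arrays all lay above the C+Fc-GLP-1 arrays, by 2.15 (adjusted p = 0.0656), by 2.55 (adjusted p = 0.0435) without replicate 1 of C+Fc-GLP-1, and by 1.48 without replicate 4 of M+Fc-GLP-1 and replicate 1 of C. MCD exceeded C by 1.88 (adjusted p = 0.115), or by 3.06 (adjusted p = 0.000821) without replicate 1 of C. The sign of 2 further differences turned without that array, namely C+Fc-GLP-1 against C after PH (from -1.16 to 0.02) and C after against before PH (from 1.01 to -0.17), neither of them called.

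Krt19, the biliary keratin, was called in no comparison in the fit of all arrays. Before PH it was 1.99, 0.35, 0.38 and 0.46 in C livers and -0.50, -0.51, -0.58 and -1.04 in MCD livers. Every MCD array was below every C array, by 1.45 ± 0.83 (adjusted p = 0.198, or 0.0174 in a fit of these groups alone). After PH it was 2.10, 0.37, -0.84 and 0.16 in C livers and -2.47, -2.90, -0.34 and -1.20 in MCD livers, a difference of -2.18 (adjusted p = 0.086). M+Fc-GLP-1 livers after PH read -0.83, -0.54, -1.40 and 3.34, so the difference of 1.87 from MCD livers (adjusted p = 0.178) was 0.80 without the array at 3.34 and replicate 1 of C.

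Krt7, Sox9 and Cd24a were called nowhere either. Krt7 ranged from -4.35 to 1.41 over the 32 arrays, and its highest value was replicate 4 of M+Fc-GLP-1 after PH, where the other 3 read -2.46, -2.34 and -3.14. Cd24a in that group was -0.89, 0.01, -0.48 and 2.62. Sox9 ranged from -2.40 to 0.45, with its 2 highest group means in C and C+Fc-GLP-1 after PH, at -0.44 and 0.00. In C+Fc-GLP-1 livers all Sox9 arrays after PH lay above those before PH, by 1.08 ± 0.34 (adjusted p = 0.116).

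**Figure D3:**
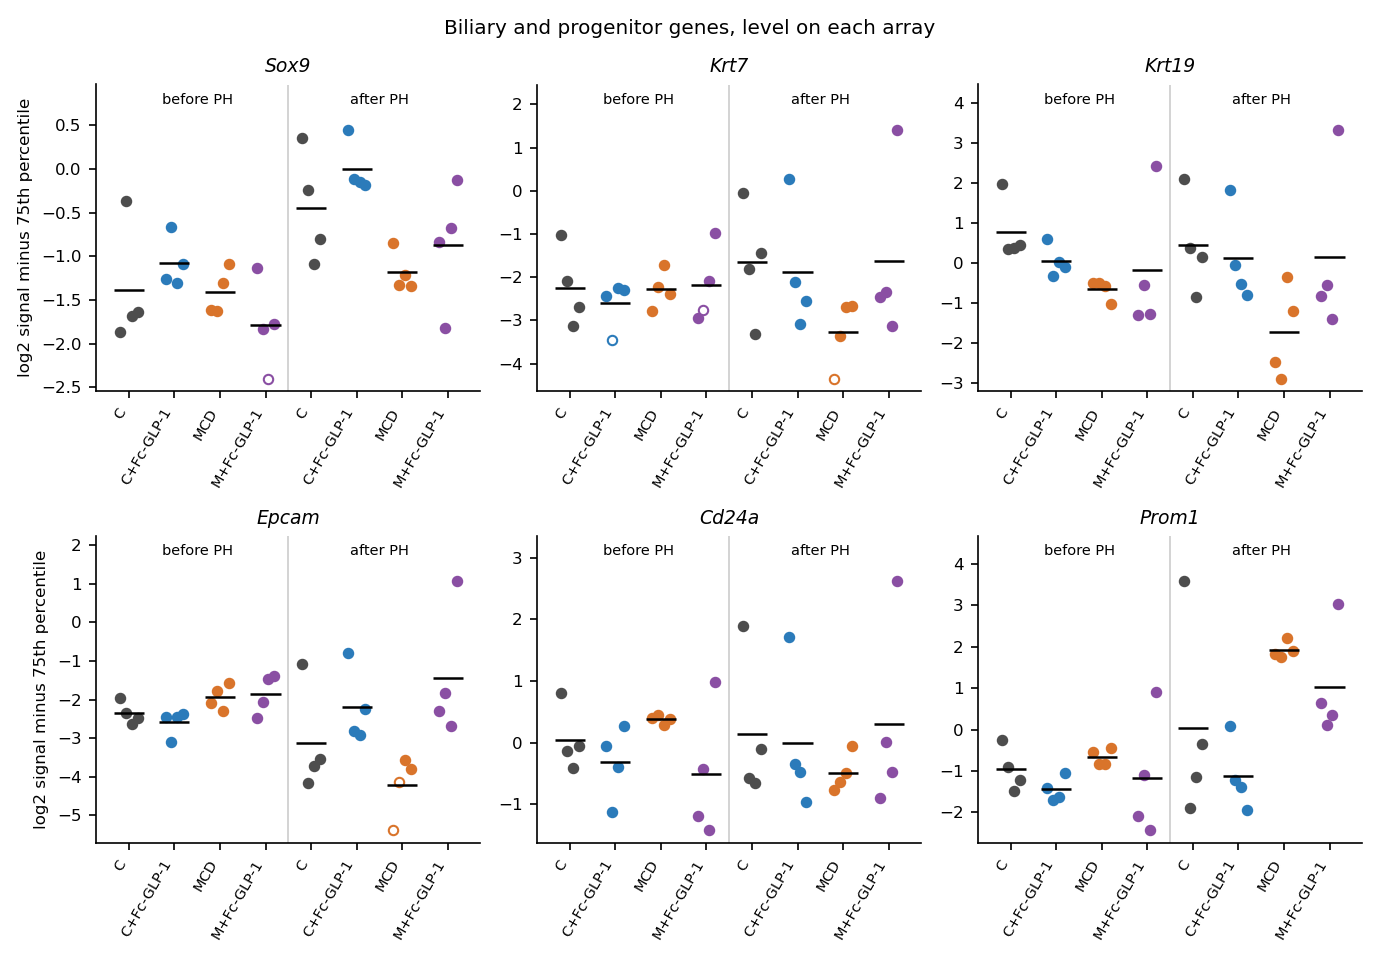
Log2 level relative to the 75th percentile of the array (vertical axis) for Sox9, Krt7, Krt19, Epcam, Cd24a and Prom1 on each of the 32 arrays, by group (horizontal axis). Bars are group means over 4 arrays and open circles are arrays not well above background. Epcam after PH lies at -5.38 to -3.56 in MCD and at -2.69 to 1.06 in M+Fc-GLP-1 livers.

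The biliary and progenitor genes shared single high arrays, Sox9 only after PH. In 5 of 8 groups 1 array was the highest of its group for all of Krt7, Krt19, Epcam, Cd24a and Prom1. These were replicate 1 of C before PH, C after PH and C+Fc-GLP-1 after PH, and replicate 4 of M+Fc-GLP-1 before and after PH. Markers of other cells differed on the same arrays after PH. The summed level of 9 stellate cell and fibroblast markers was 82.4, 21.3, 18.3 and 31.8 in C, 73.4, 26.9, 22.8 and 23.1 in C+Fc-GLP-1 and 19.5, 18, 10.1 and 41.8 in M+Fc-GLP-1, highest each time on the array with the high biliary genes. Macrophage markers were also highest on that array in C (265 against 80.2 to 174), C+Fc-GLP-1 (211 against 116 to 127) and M+Fc-GLP-1 (86.7 against 58.4 to 78.2). Mesothelial markers were highest on that array in C+Fc-GLP-1 (5.03 against 0.866 to 1.1) and M+Fc-GLP-1 (6.38 against 1.06 to 3.5) but not in C (2.96, with 8.23 on replicate 4). Of the mesothelial markers, Wt1 was well above background on 25 of 32 arrays, Msln and Pdpn on 24 each and Gpm6a on 19. Upk3b was so on 10, and Upk1b and Lrrn4 on 4 each. The summed hepatocyte markers were lowest on the high array in C (2220 against 3380 to 4550), in C+Fc-GLP-1 (3960 against 4160 to 5370) and in M+Fc-GLP-1 (3650 against 5110 to 5890). Before PH, hepatocyte markers were not lowest on the high array, at 5320 in C (4660 to 5550 on the others) and 4230 in M+Fc-GLP-1 (3960 to 6410 on the others). Stellate cell and fibroblast markers there were highest on the high array in C (13.7 against 9.11 to 11.1) but not in M+Fc-GLP-1 (9.61, with 11.9 on replicate 1). Macrophage markers before PH were highest on it in M+Fc-GLP-1 (59.1 against 31.2 to 49.1) but lowest in C (42.7 against 47.6 to 69). The part of these cells in the differences between arrays was not tested.

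**Figure D4:**
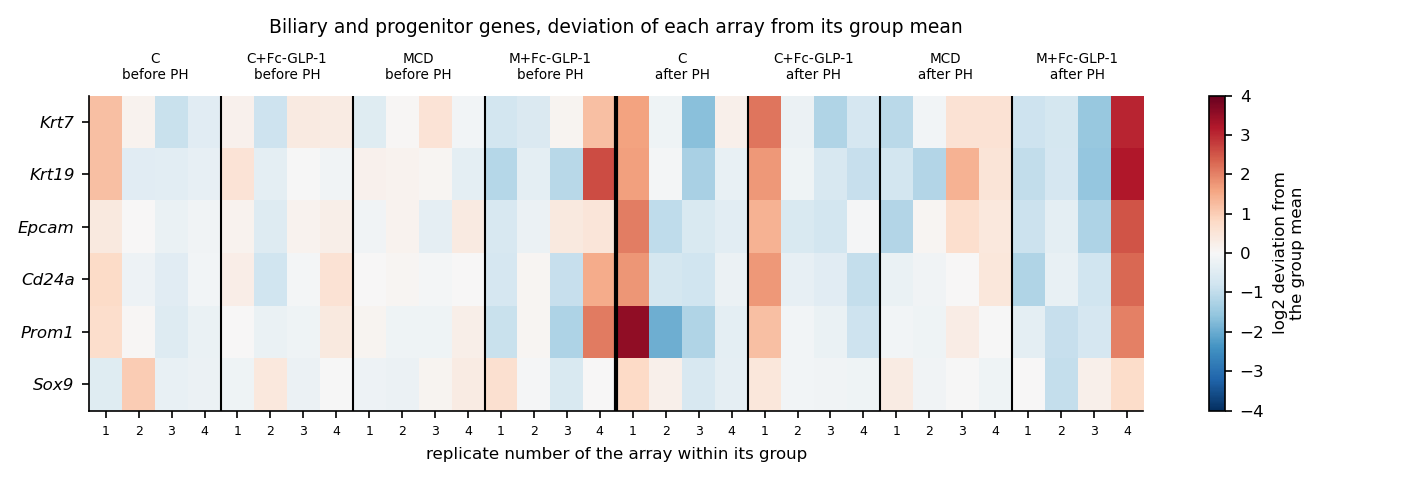
Deviation of each array from its group mean (colour, log2, limits -4 and 4) for the 6 biliary and progenitor genes (rows) on the 32 arrays (columns, by group). Replicate 1 of C after PH and replicate 4 of M+Fc-GLP-1 after PH are high in several biliary genes at once.

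Counted over the members, the diet gave most of the calls before surgery. In MCD against C before PH, 2 of 9 tested members rose (Afp and H19) and none fell, where 26.4% of all genes tested were called. For the comparisons that involve M+Fc-GLP-1 arrays H19 is left out and 8 members were tested. M+Fc-GLP-1 against C+Fc-GLP-1 before PH gave 1 higher of 8 (Afp; 10.4% of all genes called), and M+Fc-GLP-1 against MCD before PH 1 lower of 8 (Afp; 7.22%). C+Fc-GLP-1 against C before PH gave 0 of 9 by limma, with 2 members at an unadjusted p under 0.05 (2.11% of all genes called). The interaction before PH gave 1 of 8 (Afp; 6.15%). None of these shares can be read as particular to the members.

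After PH, MCD against C gave 1 higher of 9 (Afp; 12.1% of all genes called), M+Fc-GLP-1 against C+Fc-GLP-1 2 higher of 8 (Afp and Gpc3; 12.8%), and M+Fc-GLP-1 against MCD 1 higher of 8 (Epcam; 6.5%). C+Fc-GLP-1 against C gave 0 of 9 by limma, with 1 member at an unadjusted p under 0.05 (2.06%). The interaction after PH gave 0 of 8, with 1 member at an unadjusted p under 0.05, and 0% of all genes were called, although 1835 genes had an unadjusted p under 0.05. Comparing after with before PH, C gave 2 higher of 9 (H19 and Afp; 14% of all genes called), MCD 2 higher and 1 lower of 9 (Gpc3, Prom1 and Epcam; 9.43%), and C+Fc-GLP-1 0 of 9 by limma, with 3 members at an unadjusted p under 0.05 (0.835%).

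**Figure D5:**
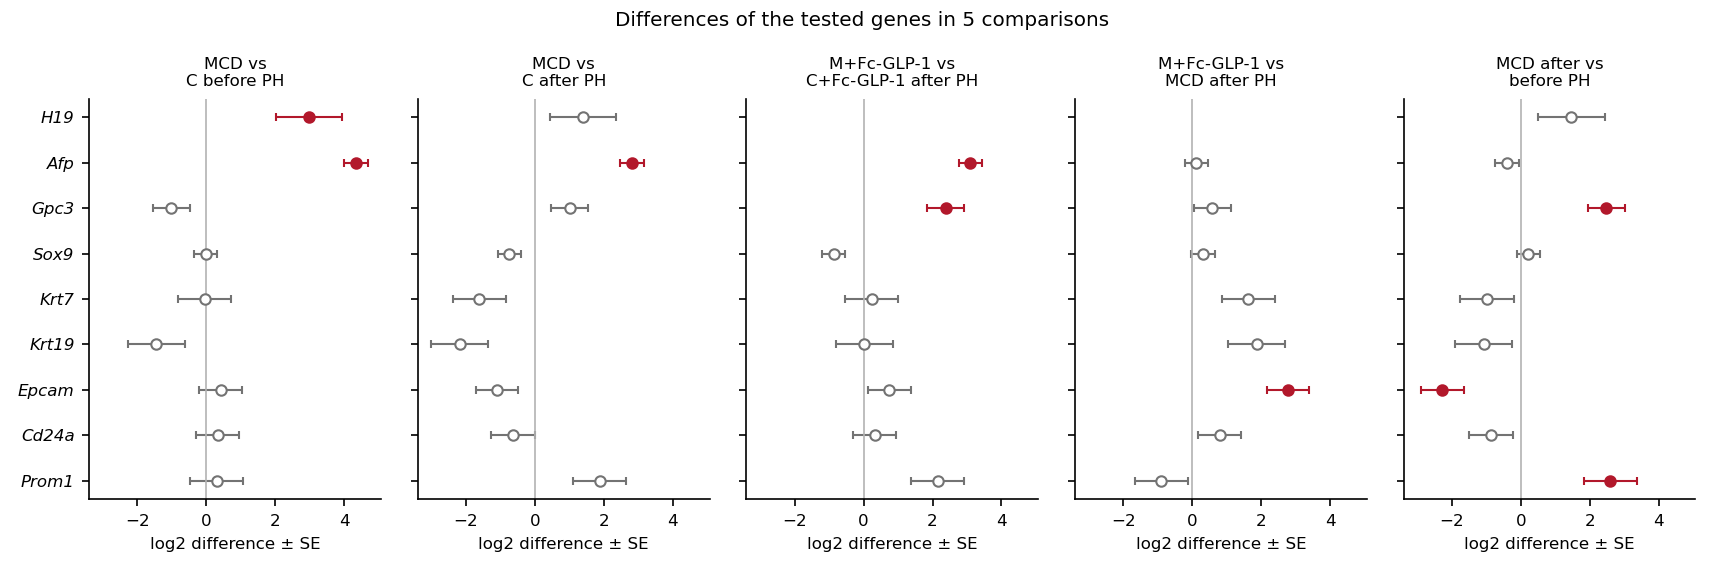
Difference of log2 level (horizontal axis, with SE) for each of the 9 tested members (vertical axis) in 5 comparisons named above the panels, n = 4 arrays a group. Filled red points passed an adjusted p of 0.05, and H19 is left out of the panels with M+Fc-GLP-1 arrays. Afp is called in 3 of the 5 panels, and Epcam lies above 0 in M+Fc-GLP-1 against MCD livers after PH and below 0 in MCD livers after against before PH.

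Other fetal and oncofetal genes, from a list of 17 of which 12 were tested, split in the MCD livers before PH. Spink1, a trypsin inhibitor, was 27.4-fold higher (4.77 ± 0.55, adjusted p = 6.59e-07) and Hk2, the hexokinase of fetal liver and tumours, 6.47-fold higher, while Lin28a (-0.79) and Mdk (-0.92) were lower, the latter pair being named after their values were seen. The list median was 0.38, against -0.13 for all genes tested, of which 26.4% were called. In M+Fc-GLP-1 against C+Fc-GLP-1 livers after PH, 3 rose and none fell, namely Igdcc4 (a surface protein of fetal liver cells, 12.9-fold), Spink1 (3.30-fold) and Hmga1 (a chromatin protein of embryonic tissue, 2.31-fold). Against MCD livers after PH, by contrast, Spink1 (3.86-fold) and Igdcc4 (5.01-fold) were lower under Fc-GLP-1. Over all genes tested, 12.8% were called against C+Fc-GLP-1 livers and 6.5% against MCD livers. Only after PH on MCD, with or without Fc-GLP-1, was Igdcc4 well above background on all 4 arrays of a group. Its level was -0.26, 0.95, 1.63 and 1.71 in MCD livers and -2.21, -0.74, -1.15 and -1.17 in M+Fc-GLP-1 livers. Thus the order of MCD and M+Fc-GLP-1 livers after PH was not the same for Igdcc4 and Spink1 as for H19, and Afp showed no difference that passed the test.

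Of 11 other imprinted genes tested, Cdkn1c, a cell cycle inhibitor, rose 2.53-fold and Grb10, an adaptor that restrains insulin and IGF signalling, fell 2.33-fold in MCD against C livers before PH. In M+Fc-GLP-1 against C+Fc-GLP-1 livers after PH, Cdkn1c was 2.5-fold higher, Mest 4.77-fold lower and Sgce 1.92-fold lower. In M+Fc-GLP-1 against MCD livers after PH none of the 11 passed, with a median of -0.32 against 0.05 for all genes. The share of all genes called was 26.4%, 12.8% and 6.5% in these comparisons, in that order.

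Of 14 regulators of H19 and Afp and receptors of IGF2 tested, 6 were called in MCD against C livers before PH, the comparison in which 26.4% of all genes were called. Zbtb20, a repressor of Afp in adult liver, was 1.97-fold lower (-0.97 ± 0.25, adjusted p = 0.00533). Zfp57, which protects imprints in the embryo, was 3.98-fold lower, Foxa2 2.00-fold and Cebpa 1.99-fold lower, both hepatocyte transcription factors, and Insr (named after its value was seen) 1.83-fold lower. Igf1r, through which IGF2 signals, was 2.01-fold higher, and Igf2r, which clears IGF2, did not pass (0.05, adjusted p = 0.865). Zhx2, another repressor of both Afp and H19, was not tested, with 0 to 2 arrays of a group well above background. None of the 14 passed in M+Fc-GLP-1 against MCD or against C+Fc-GLP-1 livers after PH, Zbtb20 being at -0.72 in the latter (adjusted p = 0.0599).

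Of 23 other biliary and ductular genes tested, 2 were higher and 2 lower in MCD against C livers before PH. In MCD against C livers before PH, Krt23, a keratin of ductular and injured liver cells, rose 8.55-fold and Tnfrsf12a, the receptor for the ductular growth signal TWEAK, 3.69-fold, while Slc4a2, the anion exchanger of bile ducts, named after its value was seen, fell 2.48-fold. After PH, Slc10a2, a bile acid transporter, was 4.62-fold below the C+Fc-GLP-1 level in M+Fc-GLP-1 livers, and Dcdc2a, a protein of cilia, was 3.03-fold above the MCD level. The list medians were 0.20, -0.15 and 0.54 in these 3 comparisons, against -0.13, -0.01 and 0.05 for all genes. The share of all genes called in them was 26.4%, 12.8% and 6.5%.

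Notch and YAP pathway genes (14 tested), which act in bile duct formation, gave 3 higher and 3 lower in MCD against C livers before PH, again beside 26.4% of all genes. Notch1 was 4.68-fold lower, and Hey1, a Notch target, and Ccn2, a YAP target, were 3.56-fold and 3.74-fold higher. After PH, Notch1 (5.96-fold), the Notch target Heyl (3.12-fold) and the ligand Jag1 (2.28-fold, named after its value was seen) were above the MCD level in M+Fc-GLP-1 livers, the comparison in which Epcam was higher. Against C+Fc-GLP-1 livers, Heyl was 4.74-fold lower. Over all genes tested, 6.5% were called against MCD livers and 12.8% against C+Fc-GLP-1 livers.

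Markers of other cells were called in these comparisons too, in several lists at a share near that of all genes tested. That share was 26.4% in MCD against C livers before PH and 7.22% in M+Fc-GLP-1 against MCD livers before PH. After PH it was 6.5% in M+Fc-GLP-1 against MCD livers and 12.8% in M+Fc-GLP-1 against C+Fc-GLP-1 livers. For after against before PH it was 14% in C and 9.43% in MCD livers. In MCD against C livers before PH, where H19 and Afp rose, all 5 proliferation markers tested rose (median 2.99), as did 6 of 7 macrophage markers with 1 lower (median 1.57), 3 of 9 stellate cell and fibroblast markers, 2 of 6 neutrophil markers, and 1 of 4 mesothelial and 1 of 6 endothelial markers, whereas 2 of 10 hepatocyte markers, 2 of 5 erythroid, 1 of 5 B cell and 1 of 3 exocrine pancreas markers fell. The summed macrophage markers were 42.7 to 69 in C and 63.2 to 173 in MCD livers, and the summed proliferation markers 0.687 to 3.46 and 3.67 to 10.1. In M+Fc-GLP-1 against MCD livers after PH, 4 of 6 neutrophil markers (median -3.25) and 2 of 7 macrophage markers fell and no hepatocyte marker of 10 passed (median 0.42). In addition, 1 of 6 endothelial and 1 of 5 erythroid markers fell there, and 1 of 5 erythroid markers rose. In M+Fc-GLP-1 against C+Fc-GLP-1 livers after PH, 3 of 5 B cell, 1 of 5 proliferation and 1 of 7 macrophage markers fell, and the 4 mesothelial markers had a median of 0.75 with none called. There too 1 of 6 endothelial and 1 of 5 erythroid markers fell, while 1 of 10 hepatocyte and 1 of 5 erythroid markers rose. Of the skeletal muscle markers 1 was tested and was called in none of these 3 comparisons, and Ckm was well above background on 0 arrays. In M+Fc-GLP-1 against MCD livers before PH, where Afp was lower, 4 of 7 macrophage markers (median -1.65), 2 of 6 neutrophil markers (with 1 higher) and 1 of 9 stellate cell and fibroblast markers (Col3a1) fell. After against before PH in C livers, 6 of 7 macrophage, 4 of 5 proliferation, 3 of 9 stellate cell and fibroblast, 2 of 6 neutrophil and 1 of 5 erythroid markers rose, and 1 of 10 hepatocyte and 2 of 5 erythroid markers fell. In MCD livers, 4 of 6 neutrophil markers (median 3.19), 1 of 4 mesothelial (Msln), 1 of 6 endothelial and 1 of 5 erythroid markers rose and 2 of 9 stellate cell and fibroblast markers fell after PH. The part of these cells in the changes of the members was not tested.

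Across the 32 arrays the genes most like H19 were Fndc10 (Pearson r = 0.878), Ly6d (0.874), a surface protein of the Ly6 family, and Cd63 (0.869), a membrane protein of endosomes. Within groups, as deviations from the group means, these correlations were 0.673, 0.789 and 0.79. Most like Krt19 were Krt42 (0.887), a keratin of the same type I family, with sequence shared between their probes not tested, Krt7 (0.844) and Kif12 (0.821), a kinesin of bile duct and kidney cells, with 0.913, 0.883 and 0.776 within groups. Among the members, Krt19 went with Cd24a (0.778) and Epcam (0.675), and H19 with Prom1 (0.798), Gpc3 (0.686) and Afp (0.632) but not with Krt19 (-0.0427). The SD of H19 was 3.8 in C after PH, where replicate 1 read 5.35, and 0.34 to 0.88 in the other groups. That array was also the highest of all in Prom1, at 3.58. The correlations with H19 may thus rest largely on it, and they were not computed without it. The arrays share slides, groups and tissue makeup, so these values describe the arrays and carry no test.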

How the data were processed

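Liver RNA was hybridised to 1-colour (Cy3) SurePrint G3 mouse arrays with 55681 probes, 32 arrays in 8 groups of 4. Per the file headers, the deposited intensity values are Feature Extraction 10.7.3.1 processed signals, background-subtracted, with probe positions on mm9. The deposited spot flags, scored 0 or 1 by the same software, gave the calls of well above background. The authors also deposited log2 normalised values, made with limma in 2 separate tables (before and after PH), which were used as an alternative only. Here the processed signals were taken to log2 and each array was centred on its 75th percentile. A probe was retained if some group had it well above background throughout its 4 arrays (28937 probes), and a gene was read from its brightest retained probe (21073 genes). Probes were named through their RefSeq accession where it matched a gene (27656 probes, 1711 of them named otherwise on the array). The rest, and all member probes, took the arrays' gene names. All 32 arrays were fitted together in limma 3.58.1 (R 4.3.3), a gene being called at a Benjamini-Hochberg adjusted p under 0.05. No replicate block was used, since replicate numbers did not pair the arrays. The script was tested on simulated data.

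A fold given as "at least" sets the mean of the measured group against, per array of the dim group, the higher of the lowest signal well above background and the probe's own. That lowest signal is taken over all probes of the array. It is not the detection limit of the probe in question, so these folds are approximate bounds. The number of arrays limits the precision of every value. Members and lists were chosen with earlier results of these data known. The text names all 10 members, from each other list at most 4 genes with the largest called change in MCD against C before PH or in M+Fc-GLP-1 against C+Fc-GLP-1 or MCD after PH, Zhx2, Zbtb20, Igf2r and Igf1r in any case, and the 3 genes most correlated with H19 and with Krt19. The alternatives were other background correction, centring, probe filter, probe choice, arrays in the fit, a replicate block, the authors' values and leaving out each array. The leaving out of 2 arrays together was chosen after seeing the data. One gene of the other lists is not reported here.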

Additional observations from a re-analysis of the deposited data

Results flagged for a closer look

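Single arrays lay outside their group of 4 in a member gene by Dixon's criterion, the gap to the nearest other array relative to the range of the group. Replicate 1 of C after PH and replicate 4 of M+Fc-GLP-1 after PH, named in the results for being high in several genes at once, did not meet it in any gene. The criterion was met in 7 of the 80 groups of values tested (8.75%), where chance gives about 1 in 20. Krt19 in C before PH read 1.99 on replicate 1, with the others at 0.35 to 0.46, and in MCD before PH -1.04 on replicate 4, with the others at -0.58 to -0.50. Sox9 in C before PH read -0.37 on replicate 2, with the others at -1.86 to -1.64, and in C+Fc-GLP-1 after PH 0.45 on replicate 1, with the others at -0.18 to -0.11. In C+Fc-GLP-1 before PH replicate 2 was low in both Krt7 (-3.45, others -2.44 to -2.26) and Epcam (-3.11, others -2.45 to -2.37). Gpc3 in M+Fc-GLP-1 before PH read -3.37 on replicate 2, with the others at -5.29 to -5.04, and none of these 4 arrays was well above background for it.

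The effect of Fc-GLP-1 on Afp differed between the diets before PH, by -2.49 ± 0.48 on the log2 scale in limma's test of the interaction (adjusted p = 0.00408). It was -3.12 to -2.02 over the alternatives, with adjusted p from 0.000577 to 0.0113.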

How the results depend on the processing

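Of 14 called changes of members, 6 kept their direction and their side of the threshold under all alternatives run and 8 lost the call under at least 1, none of them with a change of sign. The 6 were the 4 diet differences and the interaction before PH in Afp, and Gpc3 in M+Fc-GLP-1 against C+Fc-GLP-1 after PH. Gpc3 had passed the filter only through the MCD-fed groups after PH, where it was highest. Members called moved as follows, and the cause was not tested. With normexp, 1 was called in MCD against C before PH, in C+Fc-GLP-1 against C before PH, and in C, MCD and C+Fc-GLP-1 after against before PH. With the mean over probes, 1 was called in MCD against C before PH and in C after against before PH. With median centring, or the authors' values, 1 was called in C+Fc-GLP-1 against C before PH, and the authors' values gave 0 in M+Fc-GLP-1 against MCD after PH. Fitting only the groups compared gave 3 in MCD against C before PH (Krt19 added), 0 in M+Fc-GLP-1 against MCD after PH, 0 in C, 5 in MCD and 1 in C+Fc-GLP-1 after against before PH. Without both replicate 1 of C and replicate 4 of M+Fc-GLP-1 after PH (chosen after seeing the data), 3 were called in MCD against C after PH, 1 in C+Fc-GLP-1 against C after PH and 1 in C after against before PH. Leaving out 1 array at a time gave 1 to 2 in MCD against C before PH, 0 to 1 in C+Fc-GLP-1 against C and in M+Fc-GLP-1 against MCD before PH, 1 to 3 in MCD against C after PH, 2 to 3 in M+Fc-GLP-1 against C+Fc-GLP-1 after PH, 0 to 3 in C and 1 to 2 in MCD after against before PH. Prom1 turned sign without replicate 1 of C after PH, alone or with the other array, to 0.02 in C+Fc-GLP-1 against C after PH (-1.81 to 0.02 over single arrays left out) and to -0.17 in C after against before PH (-0.17 to 1.66). Same-numbered arrays before and after PH had a mean correlation of deviations of 0.0126 (16 pairs, -0.047 to 0.0876), so the numbers did not pair the arrays, and the replicate block left 2 members called in MCD against C before PH and changed no count of members called. Median centring moved the median of all genes by up to -0.62 (interaction before PH) and by over 0.1 in 10 comparisons. Levels near background, as for H19 on chow, Igf2 and Gpc3, limit what can be measured.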
